A study of Anas platyrhynchos with 5 samples.

Results

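Small RNA from duck feather bulbs was compared between the F2 generation of a cross and pure breeds, all 5 of the 5 libraries of the series being used. The F2 group held 2 libraries, the black F2 and the white F2 library, from black and from white bulbs of Kaiya-Liancheng F2 ducks. The pure-breed group held 3 libraries: Cui Hei, with black bulbs, and Kaiya and Liancheng, each with white bulbs. Kaiya and Liancheng are the parental breeds of the cross and Cui Hei is not. All ducks (Anas platyrhynchos) were 12 months old, and 3 bulbs per bird were pooled before birds of a breed were joined into a single library. The number of birds per pool is not given, so each library is 1 pool, and the p-values below measure the spread between pools that also differ in breed. Fewer cells of a type and less of a miRNA per cell cannot be told apart in such bulk tissue.

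A microRNA (miRNA) is cut from a hairpin precursor, whose 5p and 3p arms can each give a mature strand. The strand pairs with messenger RNAs mainly through its seed, bases 2 to 8, and lowers their translation or stability, so miRNAs with the same seed share many targets. In the feather bulb, the growing base of the feather, an epithelium of keratinocytes encloses a dermal pulp, and melanocytes in that epithelium hand pigment to the keratinocytes. The members of a miRNA family are encoded at several places in a genome, some within the HOX clusters of developmental genes or in other polycistronic clusters.

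Levels are TMM-normalised CPM, read counts brought to a common library size after correction for differences in composition. Between 1601329 reads (Liancheng) and 4269854 reads (Kaiya) were counted on mature miRNAs per library, and 3 reads, taken as the floor of detection, equal 0.703 to 1.87 CPM before TMM scaling. Of 134 listed mature names, 114 passed the filter on low counts and held 99.9981% of the reads. The 10 most abundant took 70.8% to 75.7% of a library. Markers of the feather epithelium were plentiful in all 5 libraries, with miR-205b-5p, typical of keratinocytes, between 71241 and 88079 CPM and miR-200a-3p between 1494 and 2011 CPM. The melanocyte miRNA miR-204-5p stood at 11695 CPM in Cui Hei and 8785 CPM in the black F2 library against 104 CPM in Kaiya, 120 CPM in Liancheng and 106.2 CPM in the white F2 library. Colour entered the comparison of the stocks as a covariate, since black bulbs took unlike shares of the F2 and pure-breed libraries.

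The sequences below carry the comparison: first the 7 miRNAs with the smallest p-values between the stocks, then partner arms or a relative of some of them, and last pairs from the miR-106, miR-10 and miR-26 families described further on. The bases are those listed in the deposited tables, and capitals mark the seed.
miR-146b-1,2-5p: uGAGAACUgaauuccauggacug
miR-196-1,2,3-5p: uAGGUAGUuucauguuguuggga
unnumbered 3p arm: uGAAAUGUuuaggaccacuug
miR-125b-3p: aCAAGUCAggcucuugggacc
miR-148a-3p: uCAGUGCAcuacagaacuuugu
miR-449c-2-5p: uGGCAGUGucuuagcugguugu
miR-27b-3p: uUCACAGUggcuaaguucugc
miR-125b-5p: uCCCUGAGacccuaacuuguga
miR-449c-1-5p: aGGCAGUGuguuguucgguggcugc
miR-27b-1,2-5p: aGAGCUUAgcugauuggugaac
miR-106-1-5p: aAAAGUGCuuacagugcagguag
miR-106-2,3-5p: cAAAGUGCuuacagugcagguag
miR-10b-1-5p: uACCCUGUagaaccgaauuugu
miR-10b-2-5p: uACCCUGUagauccgaauuugu
miR-26a-5p: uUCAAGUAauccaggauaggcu
miR-26a-3p: cCUAUUCUugguuacuugcacu
The first 7 have 7 different seeds. The miR-106 sequences differ at their first base, outside the seed (A1C, from miR-106-1-5p to miR-106-2,3-5p, counted from the 5′ end). The miR-10b sequences differ at A12U, also outside the seed, so members of each pair share all bases of the seed.

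No miRNA passed the test between F2 and pure breeds. Of 114 tested, edgeR's quasi-likelihood test with Benjamini-Hochberg adjustment called 0 (0%), with a smallest adjusted p of 0.604. At an unadjusted p under 0.05 there were 7 (6.14%), of which 6 had a higher and 1 a lower level in the F2 libraries. The DESeq2 Wald test also called 0, with 8 at an unadjusted p under 0.05 and a smallest adjusted p of 0.0956, and limma-voom called 0 with 7. The fit had 2 residual degrees of freedom. Log2 fold changes of F2 over pure breeds, corrected for colour, were positive for 59 miRNAs (51.8%) and negative for 55, with a median of 0.03. With upper-quartile scaling the median moved to 0.11 and 64.0% were positive, so that shifts of this size cannot be told from the scaling.

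Levels were also set side by side without a model. In 33 of the 114 tested miRNAs (28.9%) the libraries of the stocks did not overlap: both F2 libraries lay above all 3 pure-breed libraries in 21 (18.4%) and below them in 12 (10.5%). The gap between the nearest libraries of the stocks was small, with a median log2 difference of 0.12 for the former and 0.10 for the latter. It reached 0.41 for miR-196-1,2,3-5p and 0.30 for miR-499-5p, the widest gap in each direction. The white F2 library was the outermost of the 5 in 18 of the 21 and in 11 of the 12. Under the 3 other scalings 18 of the 33 remained separated in each.

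miR-146b-1,2-5p had the smallest p. In mammals the miR-146 family is known for induction by NF-κB and for dampening signalling from innate immune receptors. The level of miR-146b-1,2-5p was 48707 CPM in Cui Hei, 60893 CPM in Kaiya and 58201 CPM in Liancheng. It was 67201 CPM in the black F2 and 95883 CPM in the white F2 library. Both F2 libraries lay above all pure breeds and the white one was the highest. The log2 fold change was 0.59 ± 0.13 (SE), 1.51-fold, with an unadjusted p of 0.0064 and an adjusted p of 0.604 by edgeR. It ranged from 0.43 to 0.69 on leaving out a library. With colour in the fit, leaving out the white F2 library compares the black F2 library with Cui Hei alone. Leaving out either black library compares the white F2 library with Kaiya and Liancheng, and these 2 fits differ by scaling only. The share of miR-146b-1,2-5p in all miRNA reads was 5.22% in Cui Hei (95% Clopper-Pearson interval 5.19% to 5.24%) and 8.82% in white F2 bulbs (8.79% to 8.86%). These libraries had the lowest and the highest level of all and also differ in breed and bulb colour. The intervals cover counting error within each pool and not the spread between pools. The partner arm, miR-146b-2-3p, separated too, between 95.05 and 111 CPM in the pure breeds and at 113 and 120 CPM in the F2 libraries. The separation of miR-146b-2-3p was lost under each of the 3 other scalings and that of miR-146b-1,2-5p with upper-quartile scaling. For miR-146b-2-3p the log2 fold change was 0.17 (95% interval -0.31 to 0.65). It was -0.01 without the black F2 library and 0.11 without Cui Hei, the same contrast under another scaling. Both arms of miR-146b were the tested members of the leukocyte list. That list was drawn by name, and no listed miRNA bears the name miR-142, miR-223, miR-150 or miR-155. Hairpins without a family number were counted but not assigned to the list, whatever their bases. A part of blood cells in this difference was therefore not tested.

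The lowest p in the other direction was that of miR-196-1,2,3-5p, which is encoded in the HOX clusters and in mouse cleaves the Hoxb8 messenger. The pure breeds were close together, at 4873 CPM in Cui Hei, 5154 CPM in Kaiya and 4712 CPM in Liancheng. The F2 libraries lay below, at 3546 CPM in the black and 1947 CPM in the white library. The log2 fold change was -0.95 ± 0.27 (SE), an unadjusted p of 0.017 and an adjusted p of 0.604 by edgeR. It was -0.49 without the white F2 library and -1.46 without the black one. When all reads of a hairpin were counted, mir-196 had the smallest p of 73 hairpins. Its log2 fold change was -1.04 ± 0.25, with an adjusted p of 0.197 by edgeR. The reads are nearly the same, for example 5097 for the hairpin and 5094 for miR-196-1,2,3-5p in the white F2 library. The hairpin result is therefore not separate evidence.

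Next among the numbered miRNAs with a higher F2 level was miR-125b-3p, the passenger strand of miR-125b, a miRNA of epidermal stem cells in mouse. Its level was 1499 CPM in Cui Hei, 1682 CPM in Kaiya, 1404 CPM in Liancheng, 1882 CPM in the black F2 and 2926 CPM in the white F2 library. The white F2 library stood apart from the other 4, and the log2 fold change of 0.67 ± 0.21 was 0.30 without it. With upper-quartile scaling the stocks overlapped. The guide strand miR-125b-5p did not share this order: it lay between 5449 and 6389 CPM in the pure breeds and at 5870 and 5170 CPM in the F2 libraries, a log2 fold change of -0.14 (95% interval -0.56 to 0.28).

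miR-148a-3p, which targets DNA methyltransferase 1 and, in melanoma cells, MITF, stood at 24247 CPM in Cui Hei, 25203 CPM in Kaiya and 29220 CPM in Liancheng, and at 29661 CPM in the black F2 and 40923 CPM in the white F2 library. The black F2 library was barely above Liancheng, and the log2 fold change was 0.46 ± 0.15. miR-27b-3p, which restrains adipogenesis in mammals, had 47567 CPM in Cui Hei, 44159 CPM in Kaiya, 44305 CPM in Liancheng, 53469 CPM in the black F2 and 63775 CPM in the white F2 library. The pure breeds differed little here and both F2 libraries lay above them, with a log2 fold change of 0.38 ± 0.14. Without the white F2 library the values were 0.26 for miR-148a-3p and 0.14 for miR-27b-3p.

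miR-449c-2-5p is listed with the bases of human miR-34a-5p, a target of p53 that slows the cell cycle, and the miR-34 and miR-449 families share a seed. It was rare, at 41.6 CPM in Cui Hei, 71.2 CPM in Kaiya, 84.2 CPM in Liancheng, 84.8 CPM in the black F2 and 109 CPM in the white F2 library. Its log2 fold change of 0.72 ± 0.24 varied with the libraries used, being 0.49 without Cui Hei, 0.37 without the black F2 and 0.99 without the white F2 library. Its relative miR-449c-1-5p, with the same seed, overlapped between the stocks at -0.11 (95% interval -0.66 to 0.44). The unnumbered 3p arm, to which no family or role is given here, stood at 23124 CPM in Cui Hei, 23970 CPM in Kaiya, 30751 CPM in Liancheng, 33316 CPM in the black F2 and 40953 CPM in the white F2 library. Its log2 fold change was 0.56 ± 0.16, with a range of 0.46 to 0.58 on leaving out a library, the narrowest of the 7. All of these 5 had adjusted p-values of 0.604 or 0.695 by edgeR.

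**Figure D1:**
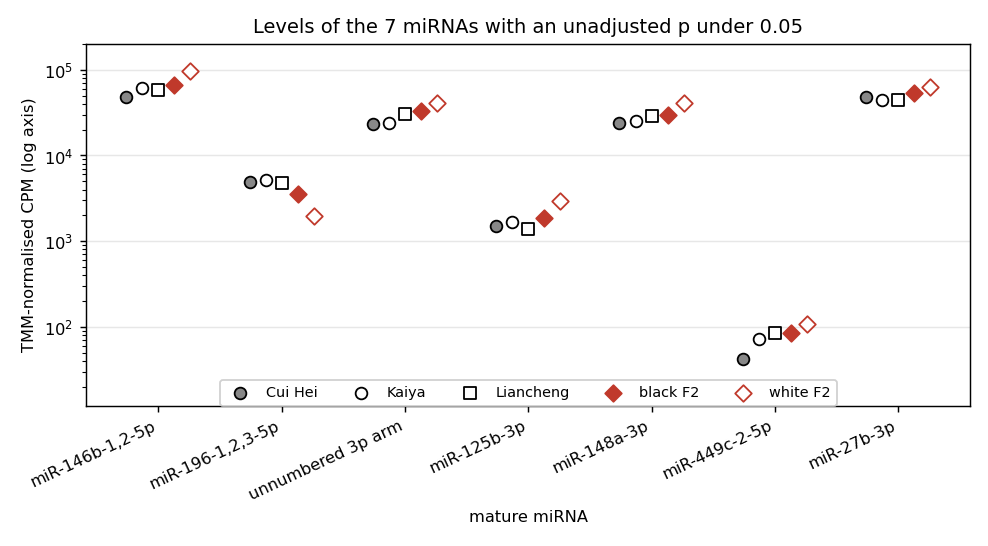
Level of each of the 7 miRNAs with an unadjusted p under 0.05 in the 5 libraries (x axis, mature miRNA; y axis, TMM-normalised CPM on a log axis). Each point is 1 library, with pure breeds in black outline and F2 libraries as red diamonds. In 6 miRNAs the F2 points lie above all pure-breed points and in miR-196-1,2,3-5p below, and the white F2 point is the outermost in all 7.

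By number family, 44 families had at least 2 tested members, 99 members together. Of all tested miRNAs 28.9% were separated, 18.4% above and 10.5% below the pure breeds. All members separated the stocks in 4 families, some in 17 and none in 23. The 4 were miR-146, miR-148, miR-27 and miR-1552, each with 2 arms of the same hairpin family, and all lay above the pure breeds. Both arms of miR-148 and of miR-1552 stayed separated under all 4 scalings. Both miR-146 arms and miR-27b-1,2-5p overlapped under at least 1 other scaling. No member of any family was called.

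In the miR-27 family the arm miR-27b-1,2-5p followed its partner, at 552 CPM in Cui Hei, 623 CPM in Kaiya, 491 CPM in Liancheng, 647 CPM in the black F2 and 933 CPM in the white F2 library (log2 fold change 0.53 ± 0.22). miR-23b-3p, which is transcribed together with miR-27b in mammals, overlapped between the stocks at 0.08 (95% interval -0.37 to 0.52). In the miR-148 family miR-148a-5p had 422 CPM in Cui Hei, 355 CPM in Kaiya and 452 CPM in Liancheng, and 452 CPM in the black F2 and 549 CPM in the white F2 library. Liancheng and the black F2 library were thus next to each other, with a gap of 0.00068 on the log2 scale. The arms of miR-1552, a miRNA described in birds, had log2 fold changes of 0.42 ± 0.18 (5p) and 0.39 ± 0.22 (3p). Without the white F2 library the fold changes were 0.11 for miR-1552-3p, 0.07 for miR-148a-5p and 0.20 for miR-27b-1,2-5p.

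The miR-106 family leaned the other way. It belongs with the miR-17-92 clusters, which promote proliferation and are activated by MYC in mammals. All 5 tested members were negative under all 4 scalings and without each library in turn, with a median log2 fold change of -0.28 against 0.03 for all miRNAs, and 3 of the 5 lay below all pure breeds, beside 10.5% of all tested miRNAs. In the seed-sharing pair both F2 libraries lay below all pure breeds under all 4 scalings. miR-106-1-5p stood at 142.6 CPM in Cui Hei, 141.5 CPM in Kaiya, 122.6 CPM in Liancheng, 116.1 CPM in the black F2 and 105.9 CPM in the white F2 library. miR-106-2,3-5p stood at 496 CPM in Cui Hei, 544 CPM in Kaiya, 502 CPM in Liancheng, 443 CPM in the black F2 and 396 CPM in the white F2 library. Their log2 fold changes were -0.31 ± 0.19 and -0.30 ± 0.18, each with an adjusted p of 0.747 by edgeR. For miR-106-2,3-5p the value was -0.19 without the white F2 and -0.52 without the black F2 library. Sequences that differ by a single base may share reads in the authors' counting, so the members are not independent. The arms miR-106-2,3-3p and miR-106-3-3p are listed with the same stretch of bases, shifted by a single base. Each had 407 reads in Cui Hei, 376 in Kaiya, 207 in black F2 and 225 in white F2 bulbs. In Liancheng they had 172 and 171 reads. These appear to be the same reads under 2 names, and the counts of negative members and the summed level given here include both names. With miR-18a and miR-19a the miR-17-92 list, drawn by name, had 8 of 8 members negative, with a median of -0.17. With upper-quartile scaling 2 were positive and the median was -0.09. The list's summed level was 2108 to 2208 CPM in the pure breeds and 1953 to 2006 CPM in the F2 libraries, without overlap. The list leaves out miR-367-3p, whose listed bases match miR-92a-3p of the same clusters in mammals. Its log2 fold change was 0.19, and it stood between 36072.5 and 40676 CPM in the pure breeds. In the F2 libraries miR-367-3p stood at 39414 CPM in the black and 46070 CPM in the white library, so the stocks overlapped. That level far exceeds the list's sum, so the shared sign and the separated sum hold for the named members only.

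In miR-26 and miR-30 members separated in opposite directions. miR-26a-5p, which targets EZH2 in mammals, had 62135 CPM in Cui Hei, 60983 CPM in Kaiya and 81914 CPM in Liancheng, above 59706 CPM in the black F2 and 52418 CPM in the white F2 library. The rare arm miR-26a-3p went the other way, with 8.86 CPM in Cui Hei, 10.2 CPM in Kaiya and 8.67 CPM in Liancheng below 11.1 CPM in the black F2 and 14.1 CPM in the white F2 library. Their log2 fold changes were -0.28 ± 0.20 and 0.46 ± 0.27, and -0.09 and 0.29 without the white F2 library. Of the miR-30 members, miR-30e-1-3p lay above the pure breeds (0.50 ± 0.21) and miR-30e-2-5p below (-0.18 ± 0.15, and -0.10 without the white F2 library). Their relatives, miR-30e-1-5p (0.02) and miR-30e-2-3p (0.35), overlapped. Under at least 1 other scaling both miR-26a arms and miR-30e-2-5p overlapped as well.

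**Figure D2:**
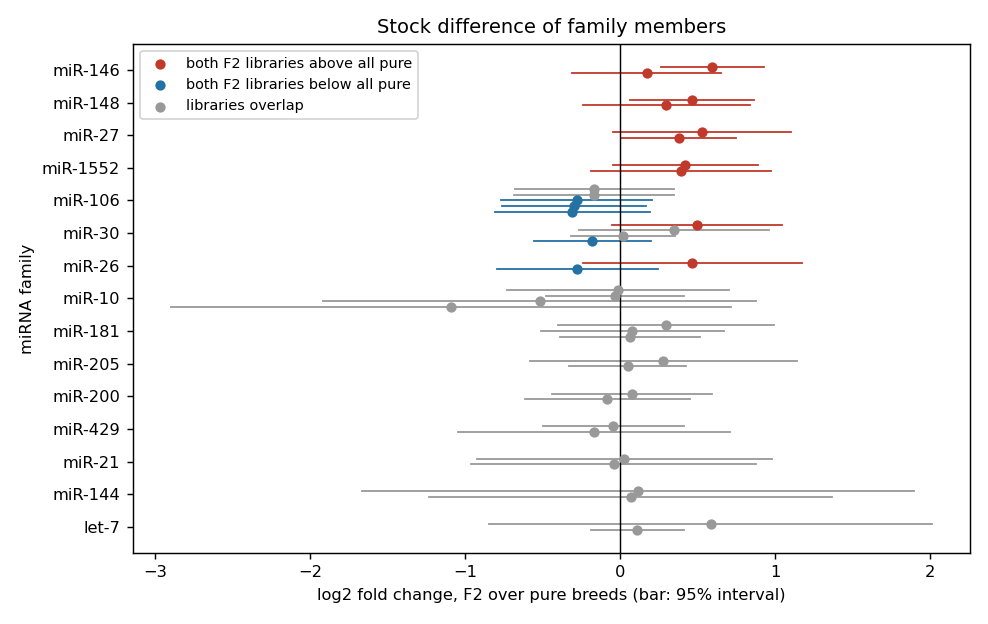
Log2 fold change of F2 over pure breeds, corrected for colour, for each tested member of 15 families (y axis, family; points are members, bars are 95% intervals of the edgeR fit). The members of miR-146, miR-148, miR-27 and miR-1552 are all separated upwards, 3 of the 5 miR-106 members downwards, and the members of the lower 8 families overlap between the stocks.

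The 23 families without a separated member included let-7, miR-10, miR-15, miR-18, miR-103, miR-126, miR-128, miR-130, miR-144, miR-181, miR-200, miR-204, miR-205, miR-21, miR-22 and miR-429. With other scalings some of their members separated: miR-15c-1-5p and miR-15c-2-3p below the pure breeds with upper-quartile scaling and DESeq2 size factors, and miR-126-5p above with upper-quartile scaling. miR-6595-3p lay above under all 3 other scalings and miR-367-3p with library size alone. How closely the data bound a difference varied. For miR-205b-5p, abundant in keratinocytes, the log2 fold change was 0.05 with a 95% interval of -0.33 to 0.43, for let-7d-5p, a brake on proliferation, 0.11 (-0.19 to 0.41), and for miR-130a-3p -0.04 (-0.43 to 0.35). miR-200a-3p and miR-429-3p, which hold epithelial identity by repressing ZEB1 and ZEB2, had -0.08 (-0.61 to 0.45) and -0.04 (-0.50 to 0.41). For these a 2-fold difference lies outside the interval. miR-21-5p (0.03, -0.93 to 0.98), which is raised in many growing tissues, had an interval that only just excluded that size, and miR-144-3p of red cells (0.07, -1.23 to 1.37) and miR-2188-5p (-0.19, -2.60 to 2.22) were too variable between the breeds to bound it.

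miR-10 had the widest interval of the abundant families. miR-10b-2-5p, whose listed bases match the start of miR-10a-5p in mammals and which, like miR-196, belongs to the HOX clusters, stood at 42116 CPM in Cui Hei, 97516 CPM in Kaiya, 20346 CPM in Liancheng, 15135 CPM in the black F2 and 33521 CPM in the white F2 library. The black F2 library was the lowest of the 5, while the white one lay between the parental breeds. The log2 fold change of -1.09 ± 0.69 had a 95% interval of -2.90 to 0.71 and was -0.39 without Kaiya. Its relative miR-10b-1-5p varied less, from 132337 to 181896 CPM in the pure breeds and at 133738 and 151257 CPM in the F2 libraries (-0.03, -0.48 to 0.41). With miR-196 the HOX-encoded list had 5 of 5 members negative and a median of -0.52, and 3 of 5 with upper-quartile scaling. Without Kaiya the list's median was -0.05, and its summed level, 160306 to 284642 CPM in the pure breeds and 152464 and 186769 CPM in the F2 libraries, overlapped.

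Lists by tissue and function, drawn by name, added few differences. Hairpins without a family number are in none of these lists. Counts, medians and sums therefore hold for the named members only, and miRNAs of these tissues without a number are left out. Of the epithelial and keratinocyte list, 0 of 8 members were called, beside 0% of all tested miRNAs. Below all pure breeds lay 1 (miR-31-3p), though not with upper-quartile scaling, beside 10.5% of all tested miRNAs. Across the list the median was 0.002, with a sign that changed between scalings. Its summed level was 103231 to 128005 CPM in the pure breeds and 116089 and 125876 CPM in the F2 libraries, which overlapped. In the dermal mesenchyme list all 5 members were negative (4 of 5 with upper-quartile scaling, where miR-22-3p was positive), with a median of -0.29. There 1 of the 5, miR-214-5p from the antisense strand of a dynamin gene, lay below, beside 10.5% of all tested miRNAs. It stood at 88.3 CPM in Cui Hei, 88.0 CPM in Kaiya, 96.6 CPM in Liancheng, 79.0 CPM in the black F2 and 54.3 CPM in the white F2 library. Its log2 fold change of -0.50 was -0.19 without the white F2 library. The summed level of the named members of that list, led by miR-22-3p, overlapped at 56217 to 77096 CPM against 66708 and 62178 CPM.

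Of 11 tested members of the pigmentation list, 5 lay above and 1 below all pure breeds, beside 18.4% and 10.5% of all tested miRNAs, with a median of 0.11 that was -0.01 without the white F2 library. Those above were both arms of miR-148a, miR-125b-3p, miR-222a-5p and miR-101-1-5p, and the one below was miR-218-5p. The separations of miR-125b-3p, miR-222a-5p, miR-101-1-5p and miR-218-5p were lost under at least 1 other scaling. The colour-bound miR-204-5p had a log2 fold change of -0.22 (95% interval -0.69 to 0.24), with the black F2 library below Cui Hei and the 3 white libraries close together. The bird-lineage list was drawn by number, and whether each member is confined to birds was not checked. It had 3 of 12 members above the pure breeds, both miR-1552 arms and miR-2131-3p, beside the 18.4% of all tested miRNAs. Its median of 0.24 was 0.04 both without the white F2 library and without Liancheng. The endothelial (median 0.09), neural (0.07) and erythroid lists (0.09) had 0 members separated by TMM-normalised levels, beside 28.9% of all tested miRNAs. In the muscle list, miR-499-5p, which sits in an intron of a myosin gene, stood at 39.2 CPM in Cui Hei, 20.2 CPM in Kaiya, 46.5 CPM in Liancheng, 57.3 CPM in the black F2 and 74.9 CPM in the white F2 library, while its arm miR-499-3p overlapped. Both F2 libraries were above all pure breeds, with a log2 fold change of 0.92 ± 0.42 and an adjusted p of 0.695 by edgeR. It was 0.52 without the white F2 library and 0.61 without Kaiya. The muscle markers miR-1, miR-133 and miR-206 were not analysed here, and a part of muscle in this difference was not tested.

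Within each bulb colour the stocks could be set side by side, with no test since each F2 group had 1 library. The ratios rest on the same libraries as the fits above that leave out 1 F2 library, so they are not separate evidence. For these ratios a miRNA needed 50 reads or more in each library compared. Among 90 such miRNAs the white F2 library differed from the mean of Kaiya and Liancheng by a log2 ratio of 1 or more in 2 (2.22%): miR-499-5p at 1.17 and miR-196-1,2,3-5p at -1.34. In black bulbs, the black F2 library differed from Cui Hei by that size in 2 of 96 (2.08%): miR-449c-2-5p at 1.03 and miR-10b-2-5p at -1.48. The median absolute log2 ratio was 0.289 in white and 0.152 in black bulbs. Against a single parent the white F2 library reached the size in 7 of 97 for Kaiya (7.22%) and in 7 of 91 for Liancheng (7.69%), with miR-196-1,2,3-5p in both. Kaiya and Liancheng themselves reached it in 9 of 90.

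The ratios in white and in black bulbs share no library, though all 5 were scaled together. Over 90 miRNAs, which are not independent replicates, they had Pearson's r of 0.46 and Spearman's rho of 0.43, and 58 of 90 (64.4%) had the same sign. No miRNA reached a log2 ratio of 1 in both. The white ratio was the larger in size for 65. For miR-146b-1,2-5p the ratio was 0.69 in white and 0.46 in black bulbs, for miR-196-1,2,3-5p -1.34 and -0.46, and for miR-125b-3p 0.92 and 0.33. For the unnumbered 3p arm the ratios were 0.58 and 0.53. The edgeR test of whether the stock difference depended on colour called 0 of 114 (0%), with 0 at an unadjusted p under 0.05 and a smallest adjusted p of 0.995. It had 1 residual degree of freedom, the difference between Kaiya and Liancheng, so differences between the colours of the size seen here were not detectable.

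**Figure D3:**
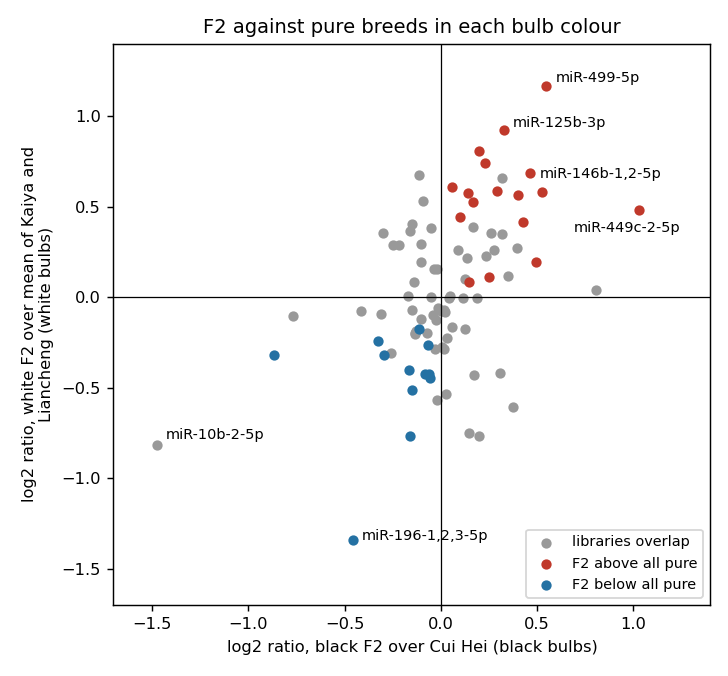
Log2 ratio of the black F2 library over Cui Hei (x axis) and of the white F2 library over the mean of Kaiya and Liancheng (y axis) for 90 miRNAs, each point 1 miRNA. Red points lie above and blue points below all pure breeds in both F2 libraries, so that they fall at the upper right and lower left by construction, and the vertical spread is wider than the horizontal one (median absolute ratio over these 90 of 0.289 against 0.151).

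The place of the F2 libraries against the interval between the parental breeds, Kaiya and Liancheng, was counted with no test. Of 90 miRNAs with at least 50 reads in those 4 libraries, both F2 libraries lay above the higher parent in 19 and below the lower parent in 15, together 37.8%. Both lay inside in 20 (22.2%), and in 10 they lay on opposite sides. Those outside on one side had a narrow parental interval, with a median log2 width of 0.20, against 0.50 for those inside. A narrow interval leaves less room inside it, so this order follows in part from the way of counting.

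Kaiya and Liancheng differed by a log2 ratio of 1 or more in 9 of the 90. In 4 of these both F2 libraries were inside the interval. The widest was that of miR-2188-5p, with 538 CPM in Kaiya and 52.0 CPM in Liancheng and with 508.2 CPM in the black F2 and 277 CPM in the white F2 library. miR-6564-3p had 494 CPM in Kaiya and 2103 CPM in Liancheng, with 821 CPM in the black F2 and 1663 CPM in the white F2 library between them. miR-21-5p lay at 17590 CPM in Kaiya and 39189 CPM in Liancheng, with the F2 libraries at 24208 and 28573 CPM, and its arm miR-21-3p was likewise inside. Both F2 libraries thus held levels between those of their parental breeds for these 4. The 9 were picked for a wide parental interval, which leaves more room inside it for any library. Cui Hei, not a parental breed, was also inside for miR-6564-3p (685 CPM), miR-21-5p (23394.5 CPM) and miR-21-3p (239 CPM). For miR-2188-5p it lay above Kaiya (630 CPM). Inheritance of these levels was not tested. miR-499-5p was the one with both F2 libraries above both parents. The white F2 library was inside for 7 of the 9 and the black one for 5, the latter lying outside in miR-10b-2-5p, miR-144-3p, miR-460a-5p and miR-499-5p.

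**Figure D4:**
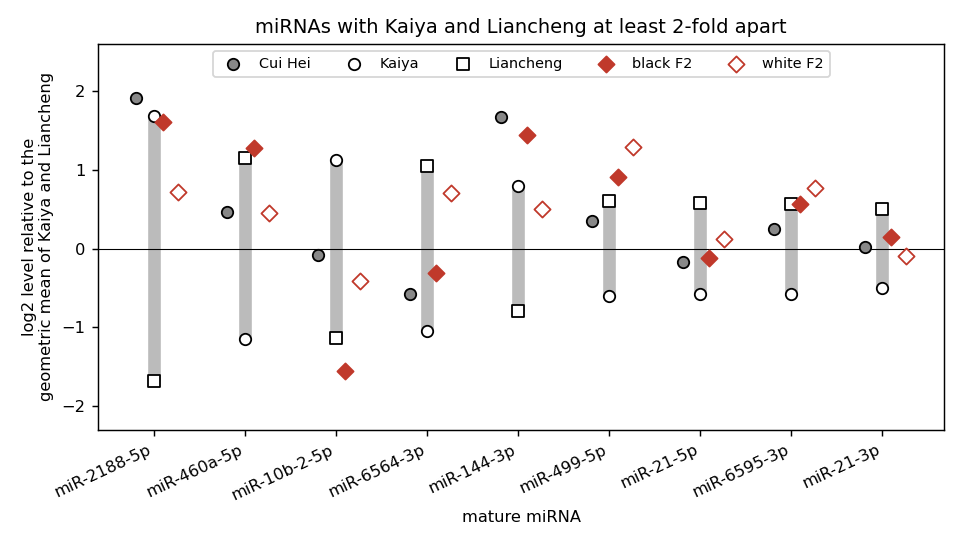
Level of the 9 miRNAs in which Kaiya and Liancheng differed by at least a log2 ratio of 1 (y axis, log2 level relative to the geometric mean of Kaiya and Liancheng; grey bars span these parental levels). Each point is 1 library, and both red F2 diamonds lie within the bar for miR-2188-5p, miR-6564-3p, miR-21-5p and miR-21-3p, and above it for miR-499-5p.

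The balance of the arms is measured within a hairpin and needs no scaling between libraries. Of 48 hairpins with enough reads on both arms, limma called 0 (0%) between the stocks, with 9 at an unadjusted p under 0.05 and a smallest adjusted p of 0.115. Among numbered hairpins mir-125b came first. Its 5p over 3p reads, on the log2 scale, stood at 2.04 in Cui Hei, 1.93 in Kaiya and 1.96 in Liancheng, and 1.64 in the black F2 and 0.82 in the white F2 library. The pure breeds were nearly equal and both F2 libraries had relatively more of the 3p arm, a difference of -0.81 ± 0.27 at an adjusted p of 0.170 (limma). It was -0.40 without the white F2 library. The other 8 at an unadjusted p under 0.05 were 3 hairpins without a family number and mir-193b, mir-2131, mir-15c-2, mir-26a and mir-31. In limma mir-193b (1.05 ± 0.36) had an adjusted p of 0.170, mir-15c-2 (0.69 ± 0.26) of 0.181, and mir-26a (-0.74 ± 0.30) and mir-31 (0.61 ± 0.26) of 0.194. The rarer arm had as few as 4 reads in a library for mir-193b, and 14 for mir-15c-2 and for mir-26a. The rarer arm was relatively more frequent in the F2 libraries in 25 of the 48 hairpins and less frequent in 23. These counts include mir-106-2 with mir-106-3 and mir-455-1 with mir-455-2, pairs listed with the same or nearly the same reads. miR-455-1,2-3p and miR-455-2-3p, with equal counts in each library, are also both among the 114 tested miRNAs. Without Liancheng 3 hairpins were called, mir-2131 and 2 without a family number. For mir-2131 the difference was then -0.87 with an adjusted p of 0.0433 by limma, against -0.73 and 0.181 with all libraries. In the fit without Liancheng the p-values followed the size of the difference alone. Those calls therefore rank hairpins by size and do not draw on each hairpin's own spread.

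Sequence composition and level were described beside the stock difference. Across the 114 miRNAs, which are not independent, Spearman's rho with the log2 fold change was 0.12 for GC content, -0.18 for length and 0.0052 for mean level. The median GC content was 47.6% in those above the pure breeds, 41.3% in those below and 45.5% in those overlapping.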

How the data were processed

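Each of the 5 deposited tables lists hairpins and their mature miRNAs. Per the series' design text, the authors ran miRDeep2 2.1.2 on the clean reads. FastQC and Bowtie 0.12.2 are also listed per the submitters' processing notes. The genome build was not given in the sources used here. The values used are the raw read counts that the authors deposited for each mature miRNA and each hairpin. The deposited CPM was checked to equal the count over the table's total to within 0.006 and was not used further. A mature name on several lines was taken once with its highest count, and a name not listed in a table as 0. In 6 cells the sequence was blank or outside its column.

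F2 and pure-breed libraries were compared with edgeR 4.0.16 in R 4.3.3 (quasi-likelihood test, TMM normalization, filterByExpr by stock, bulb colour as a covariate, Benjamini-Hochberg adjustment over 114 miRNAs, threshold 0.05). The fit's common dispersion of 0.0847 equals a biological coefficient of variation (BCV) of 0.291. Each standard error (SE) was derived from the F statistic of the fitted change. Arm ratios, log2 of (reads + 0.5), were compared with limma 3.58.1 where each arm of a hairpin had 50 reads or more over the libraries. Counting intervals are Clopper-Pearson at the 95% level and, as reads carry no molecular identifiers, cover counting error only. DESeq2 1.42.0, limma-voom, other scalings, filters and left-out libraries were alternatives. Both edgeR settings added after seeing the data are a robust and a bias-adjusted fit. The procedure was tested on simulated data.

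Named are the 10 miRNAs per direction with the smallest p, the 10 most abundant, separated family members and the 5 hairpins with the smallest arm p. Other miRNAs named for a family, list or ratio were chosen after their values were seen. The comparison, the members and the lists were chosen with earlier results of these data known. Hairpins without a family number are not named. No batch or sequencing date is given in the labels.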

Additional observations from a re-analysis of the deposited data

Results flagged for a closer look

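Reads assigned to a hairpin that matched none of its listed mature sequences are a signal that the comparison of mature miRNAs did not use. The hairpin mir-27b-1 held 344461 of them, 99.3% of 346849 in the 5 libraries. Their TMM-scaled level was 22672 CPM in Cui Hei, 18318 CPM in Kaiya and 21611 CPM in Liancheng, against 27494 CPM in the black F2 and 35425 CPM in the white F2 library. Both F2 libraries thus lay above all pure breeds, as they did for miR-27b-3p and for 18.4% of all tested miRNAs. For mir-27b-1 only a 5p arm is listed, while miR-27b-3p is listed under mir-27b-2. Whether these reads come from a 3p arm of mir-27b-1 was not tested. The ratio of these reads to miR-27b-3p reads was 0.477 in Cui Hei, 0.415 in Kaiya, 0.488 in Liancheng, 0.514 in the black F2 and 0.555 in the white F2 library.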

How the results depend on the processing

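The stock test called 0 miRNAs under every alternative run, including both fits added after seeing the data and each left-out library. Of 794 values of 40 named miRNAs, 766 kept their direction and side of the threshold, and 28 of 7 miRNAs changed sign. These values are not independent. The fits in white libraries alone and without either black library rest on the same contrast. Without the most abundant miRNA the log2 fold change was -0.0068 for let-7d-5p, -0.0073 for miR-222a-5p, -0.055 for miR-181b-1,2-5p and -0.068 for miR-205b-5p. In white libraries alone it was -0.032 for let-7d-5p, -0.022 for miR-146b-2-3p, -0.049 for miR-222a-5p and -0.13 for miR-205b-5p. With library size alone, no read filter, summed lines and without the miR-204 arms it was -0.012, -0.019, -0.0088 and -0.00072 for miR-181b-1,2-5p and -0.022, -0.037, -0.026 and -0.017 for miR-205b-5p. Upper-quartile scaling gave 0.015 for miR-22-3p and 0.040 for miR-10b-1-5p. On leaving out a library the values ranged from -0.016 to 0.10 for let-7d-5p, -0.0052 to 0.22 for miR-146b-2-3p, -0.032 to 0.11 for miR-222a-5p, -0.28 to 0.29 for miR-181b-1,2-5p, -0.12 to 0.12 for miR-205b-5p and -0.22 to 0.081 for miR-10b-1-5p.

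On leaving out a library the arm test called 0 to 3 hairpins (3 without Liancheng), and 41 to 68 miRNAs did not overlap between the stocks, since fewer libraries need to be ordered. Without either parent the white F2 library reached the size in 7. For the black F2 library and Cui Hei that count was 1 with library size alone and 4 with at least 10 reads, where rarer miRNAs enter. Otherwise the cause was not tested. No paired analysis was possible because the design pairs no F2 library with a pure-breed library. With 5 pools, 1 of them (white F2) outermost in most separated miRNAs, differences of the size seen could not be called.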
